A study of Drosophila melanogaster with 3 samples.

Results

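The ecdysone response genes are 10 Drosophila genes, EcR, usp, br, Eip74EF, Eip75B, Eip78C, Eip93F, Hr3, Hr4 and ftz-f1, taken by symbol from the 13945 protein-coding genes of the annotation. Occupancy at them was read from ChIP-seq of the protein CG3995, precipitated with an antibody to GFP. All 3 biological replicates were whole embryos of 1 transgenic fly line in which GFP is joined to the C-terminus of CG3995, collected 0 to 24 h after laying with males and females mixed. They formed a single group: every sample carried the tag, and no untagged or mutant embryos and no other stage were analysed here. Embryos of all ages and tissues were mixed, so binding in a few cells and weak binding in many cells cannot be told apart.

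Ecdysone is the steroid hormone that times molting and metamorphosis in insects, and a pulse of it in the embryo is needed for morphogenesis. The hormone binds a heterodimer of 2 nuclear receptors, EcR and Usp, which switches on a small set of early genes, among them br, Eip74EF and Eip75B. Their products and those of Hr3, Hr4 and ftz-f1 then form a cascade of transcription factors that ends the first response and prepares the next. Most of these genes are long, with alternative promoters that make different protein isoforms.

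The 10 genes had a median length of 63.0 kb, against 2.17 kb over all protein-coding genes. They had 38 annotated starts in all, with a median of 3 per gene and a range of 2 (usp, Eip93F and Hr4) to 9 (br). All except usp had at least 1 long intron, meaning a stretch of 10 kb or more of the gene that no exon covers. The thresholded list, called from the 3 replicates together, held 4260 lines, each counted here as a region with its own summit. Merged, they were 3979 regions. The replicate lists held 30000, 28051 and 24171 regions including background. Each region has a summit, its point of highest enrichment, and a signal, the authors' enrichment value, which has no unit and is compared here only within a list. Ranks count from 1 for the strongest region of a list. Read depth was unknown. The chance error given for a share is an exact (Clopper-Pearson) 95% interval, which covers counting error only.

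CG3995 was found at the starts of 2 of the 10 genes, usp and Eip75B, and inside long introns of 6 of the 9 that have one. A thresholded summit lay within 500 bp of a start in 20% of the genes (2 of 10, interval 2.52 to 55.6%), against 28.2% of 13945 protein-coding genes. The share was 27.5% among the 869 protein-coding genes with a long intron, and 48.6% among the 111 that also had at least 4 starts. The interval for the 10 genes includes all 3 of these background shares. Counted by start, 4 of 38 starts (10.5%, 2.94 to 24.8%) had a summit, against 25.5% of 19607 starts of protein-coding genes. The interval by start lies below the background share by a small margin, but several starts of 1 gene lie within 500 bp of each other and are not independent. Taking the 4260 strongest regions of each replicate, 2 genes had a region at a start in replicate 1, 3 in replicate 2 and 2 in replicate 3 (2.33 ± 0.577, SD, n = 3), against 28%, 28% and 26.3% of protein-coding genes. The additional gene in replicate 2 was EcR, with a region ranked 3698. Keeping only peaks that overlap the strongest regions of both remaining replicates, the 4 starts became 2 (5.26%) without replicate 1 and 2 (5.26%) without replicate 2, still in 2 genes, against 20.4% and 20.7% of all starts.

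The gene usp encodes the Drosophila partner of EcR, the homolog of the vertebrate retinoid X receptor, and held the strongest summits of the set. It is the shortest of the 10 (3514 bp, FBgn0003964, X from 2038798 to 2042311, minus strand, dm6). The third summit along the gene had a signal of 7447 and rank 108 in the thresholded list, and ranks of 102, 102 and 116 in replicates 1, 2 and 3. It stood 107 bp upstream of the second usp start, in a 74 bp intron of the longer transcript. The start of CG4313 was 449 bp away. The second summit, in the usp 5' UTR, fell in the same 876 bp region as the third. It had a signal of 1822 and rank 280, with replicate ranks of 268, 277 and 382. It was closer to CG4313 (249 bp) than to a usp start (307 bp). The first summit had a signal of 193 and rank 2608, with replicate ranks of 2532, 2857 and 6930, and lay 116 bp from the first usp start and 116 bp from the start of Actn. All replicates ranked these summits in the same order. The sequence around the strongest summit is shown because no stronger summit was found in any of the 10 genes. It is the plus strand of chrX:2041387-2041460, the run of bases around the summit that no UTR covers. These 74 bases held none of the words that are in capitals further on. The longer stretch of 50 bp to each side of the summit did hold 1 copy of GTCAC, which is among those words. Within 100 bp of the summit there were 4 copies of GTCAC and 1 of CAGTCAC, which contains it.
usp summit 3: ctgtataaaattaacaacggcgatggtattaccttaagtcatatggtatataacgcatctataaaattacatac

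EcR encodes the ecdysone receptor itself (FBgn0000546, 2R from 6087873 to 6169087, minus strand). None of its 4 starts had a thresholded summit. The strongest pooled-list region at one of them had rank 5040 and a signal of 109, 420 bp upstream of the second start, with ranks of 3698 in replicate 2 and 4755 in replicate 3. In replicate 1 the strongest region at that start had rank 15369. EcR instead held a pair of intronic summits. The first, with a signal of 655, had rank 594 in the thresholded list and ranks of 589, 515 and 1001 in the replicates. It lay in an 11626 bp intron beside a group of tRNA genes, 195 bp from tRNA:Asn-GTT-1-4, 296 bp from tRNA:Asn-GTT-1-5 and 366 bp from tRNA:Arg-ACG-1-2, and so was not counted as a long-intron summit. The second, with a signal of 577, had rank 692 and replicate ranks of 718, 613 and 921. It stood in a 19907 bp intron, 5777 bp downstream of the nearest EcR start, and the nearest start of any gene was that of tRNA:Asn-GTT-1-1, 1324 bp away. Both intronic summits were among the strongest regions of all 3 replicates.

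**Figure D1:**
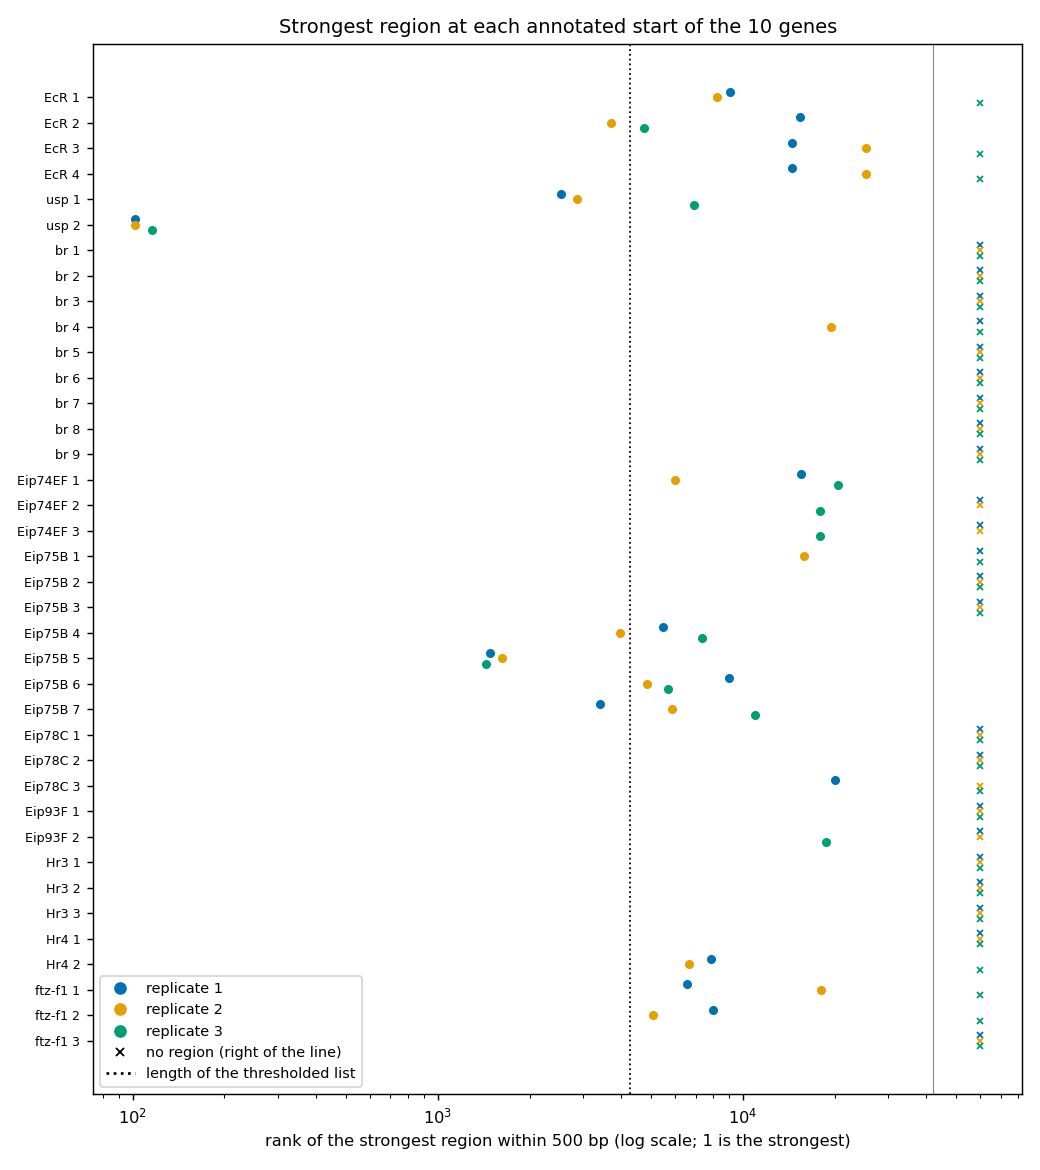
Rank of the strongest region within 500 bp of each of the 38 starts in the 3 replicate lists, on a log axis where 1 is the strongest; the dotted line is the length of the thresholded list, 4260, and crosses mark starts with no region. The second usp start is far ahead of the others at 102, 102 and 116, the fifth start of Eip75B follows at 1483, 1628 and 1444, and most starts of br, Eip78C and Hr3 have no region in any replicate.

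In the pooled list, which includes background regions, 8 of 10 genes (80%, 44.4 to 97.5%) had a summit at a start, against 57.3% of protein-coding genes, a share inside that interval. The 8 include usp and Eip75B. Eip78C and Eip93F had none. By start the pooled list had a summit at 16 of 38, with a median rank of 7720 and a range of 108 to 22697. The replicate lists had a region at 15, 16 and 11 starts. Just inside the thresholded list was the summit at the last Eip75B start, with rank 4226 and a signal of 128. Just outside it was a ftz-f1 summit of the pooled list with rank 4746 and a signal of 115, in the intron 3745 bp upstream of the nearest ftz-f1 start.

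The early gene br encodes the Broad transcription factors, BTB zinc-finger proteins that specify pupal development (FBgn0283451, X from 1575132 to 1664869, plus strand). It has the most starts of the 10 genes, and none of the 9 had a thresholded summit. The only region at any of them in the pooled list had rank 20335, at the fourth start. In the replicates this start had a region only in replicate 2, with rank 19443. The gene held 3 summits away from its starts, all of which also fall in an intron of Mur2B. The third had a signal of 737 and rank 532, with replicate ranks of 714, 782 and 363, and stood in the br 3' UTR, 32245 bp downstream of the nearest br start. The nearest start of any gene to it was that of dor, 10075 bp away. The second had a signal of 538 and rank 747, with replicate ranks of 997, 1153 and 484, in a 5550 bp intron. Both ranked highest in replicate 3. The first was weak, with a signal of 135 and rank 3981, ranks of 3322 and 3691 in replicates 1 and 2, and no matching region in replicate 3. It lay 715 bp from the start of Mur2B, the nearest of any gene, and 3438 bp from the nearest br start. The stronger pair are shown because both hold repeats of the same short word, 3 copies of GTCAC in the 101 bases around the second summit and 5 around the third, of which 3 fall in the 30 bases printed. Capitals mark GTCAC, on either strand, on the plus strand of chrX:1642222-1642322 and chrX:1654944-1654973.
br summit 2: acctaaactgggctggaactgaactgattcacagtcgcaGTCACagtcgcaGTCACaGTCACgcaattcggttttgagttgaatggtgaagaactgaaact
br summit 3: GTCACagccacaGTCACaGTCACagtcgca

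Eip74EF encodes an ETS-domain factor made as alternative isoforms from separate promoters (FBgn0000567, 3L from 17558672 to 17619325, minus strand). It had 1 summit, with a signal of 161 and rank 3250 and replicate ranks of 3152, 3650 and 5792. The summit stood 3237 bp downstream of the first start in a 15267 bp intron. Replicate 3 placed it outside its 4260 strongest regions. At the first start itself the pooled list had a region of rank 9360, 28 bp upstream, and the replicates ranked their regions there 15529, 5998 and 20445.

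Eip75B encodes the E75 nuclear receptors, which bind heme and act against Hr3 (FBgn0000568, 3L from 17950953 to 18064696, minus strand). It is the longest of the 10 genes (113744 bp) and held 6 summits, 3 at starts and 3 in long introns. The strongest had a signal of 298 and rank 1500, with replicate ranks of 1483, 1628 and 1444, and lay in the 5' UTR 116 bp downstream of the fifth start. This was the only Eip75B summit that all 3 replicates placed among their strongest regions. A second summit at the same start, 89 bp upstream of it, had a signal of 162 and rank 3236, but the replicates ranked it 8560, 2379 and 4958. The summit at the seventh start had rank 4226 and replicate ranks of 3407, 5858 and 10961. The long-intron summits had signals of 142, 171 and 183 and ranks of 3759, 3001 and 2764. Their replicate ranks were 2631, 8063 and 5926 for the first, 3379, 6362 and 1863 for the second, and 2931, 4351 and 2134 for the third. The fourth start had a pooled-list region of rank 5096, 11 bp upstream, just short of the threshold. The long-intron summits numbered 1 and 2 along the gene are shown for the words in capitals, GATGGCGC in the first (chr3L:18019773-18019873) and GTCAC in the second (chr3L:18001662-18001762), both on the plus strand.
Eip75B summit 1: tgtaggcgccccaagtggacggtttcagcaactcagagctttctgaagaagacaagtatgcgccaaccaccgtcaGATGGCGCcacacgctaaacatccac
Eip75B summit 2: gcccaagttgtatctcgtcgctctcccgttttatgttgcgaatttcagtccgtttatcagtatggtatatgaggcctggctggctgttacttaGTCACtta

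Eip78C, which encodes the nuclear receptor E78 (FBgn0004865, 3L from 21226609 to 21266503), had no thresholded summit. Its strongest pooled-list region had rank 6810 and a signal of 84.5 and lay 16026 bp downstream of the nearest start. At its 3 starts the sole region in any replicate was one of rank 20052 in replicate 1. Eip93F, which encodes the E93 factor needed for cell death and for adult development at metamorphosis (FBgn0264490, 3R from 21949114 to 22014539), had none either. Its strongest pooled-list region had rank 21288 and a signal of 37.4. Eip93F held 3 pooled-list summits along 65426 bp, or 4.59 per 100 kb, against a median of 15.6 per 100 kb over genes with a long intron. Eip78C, with 35.1 per 100 kb, was above that median.

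Hr4 encodes a nuclear receptor that represses early genes and helps to time growth and metamorphosis (FBgn0264562, X from 1941940 to 2007956, plus strand). It held 8 summits, the most of the 10 genes, and none at its 2 starts. A run of 5 stood in 1 intron of 10387 bp, at 1788, 2501, 5783, 6754 and 9962 bp from the first start, with signals of 156, 174, 145, 195 and 363. The fifth was the strongest, with rank 1173 and replicate ranks of 1204, 1374 and 1112. The sixth, in the next intron (14429 bp), had a signal of 297 and rank 1510, with replicate ranks of 1944, 1371 and 1798. All but 1 of these 6 were among the strongest regions of all 3 replicates, the exception being the third (4321, 5769 and 2764). The seventh, in a 9777 bp intron, and the eighth, in the 3' UTR, had signals of 168 and 154 and were in the strongest regions of 2 replicates and 1 replicate. The fifth summit is shown as the strongest of the run, with its single GTCAC in capitals, on the plus strand of chrX:1951852-1951952.
Hr4 summit 5: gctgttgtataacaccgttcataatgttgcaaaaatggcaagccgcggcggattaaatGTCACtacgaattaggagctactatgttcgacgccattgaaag

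The gene ftz-f1 encodes a nuclear receptor that makes tissues competent to respond to the next ecdysone pulse (FBgn0001078, 3L from 18750607 to 18801309, minus strand). It had 1 summit, with a signal of 156 and rank 3361, in a 31792 bp intron 11733 bp downstream of its first start. The replicate ranks were 3544 and 2190 in replicates 1 and 2, and replicate 3 had no region there. Its first and second starts had pooled-list regions of ranks 10971 and 7973, present in replicates 1 and 2 and absent from replicate 3. Away from the summits, ftz-f1 was rich in weak regions, with 59.2 pooled-list summits per 100 kb, above 94.4% of genes with a long intron. The sequence at its summit is shown for the GTCAC in capitals, on the plus strand of chr3L:18789526-18789626.
ftz-f1 summit 1: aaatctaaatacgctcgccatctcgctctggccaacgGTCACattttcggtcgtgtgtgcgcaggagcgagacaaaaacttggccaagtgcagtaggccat

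Hr3 encodes a nuclear receptor that activates ftz-f1 and represses early genes (FBgn0000448, 2R from 10203995 to 10237348, minus strand). None of its 3 starts had a thresholded summit, and none had a region in any replicate, while the pooled list had one of rank 12258 at the third. It held 3 summits in introns, and the strongest of them had a signal of 739 and rank 529, with replicate ranks of 533, 491 and 676. This was the strongest long-intron summit of the 10 genes. It stood in a 12369 bp intron 7862 bp downstream of the nearest start, where introns of CG12912 and CG46321 overlap Hr3. A second summit in the same intron had a signal of 166 and rank 3134, with replicate ranks of 3463, 2685 and 9756. The remaining one, in a 4066 bp intron, had a signal of 136 and rank 3961, with replicate ranks of 2895, 4999 and 5583.

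**Figure D2:**
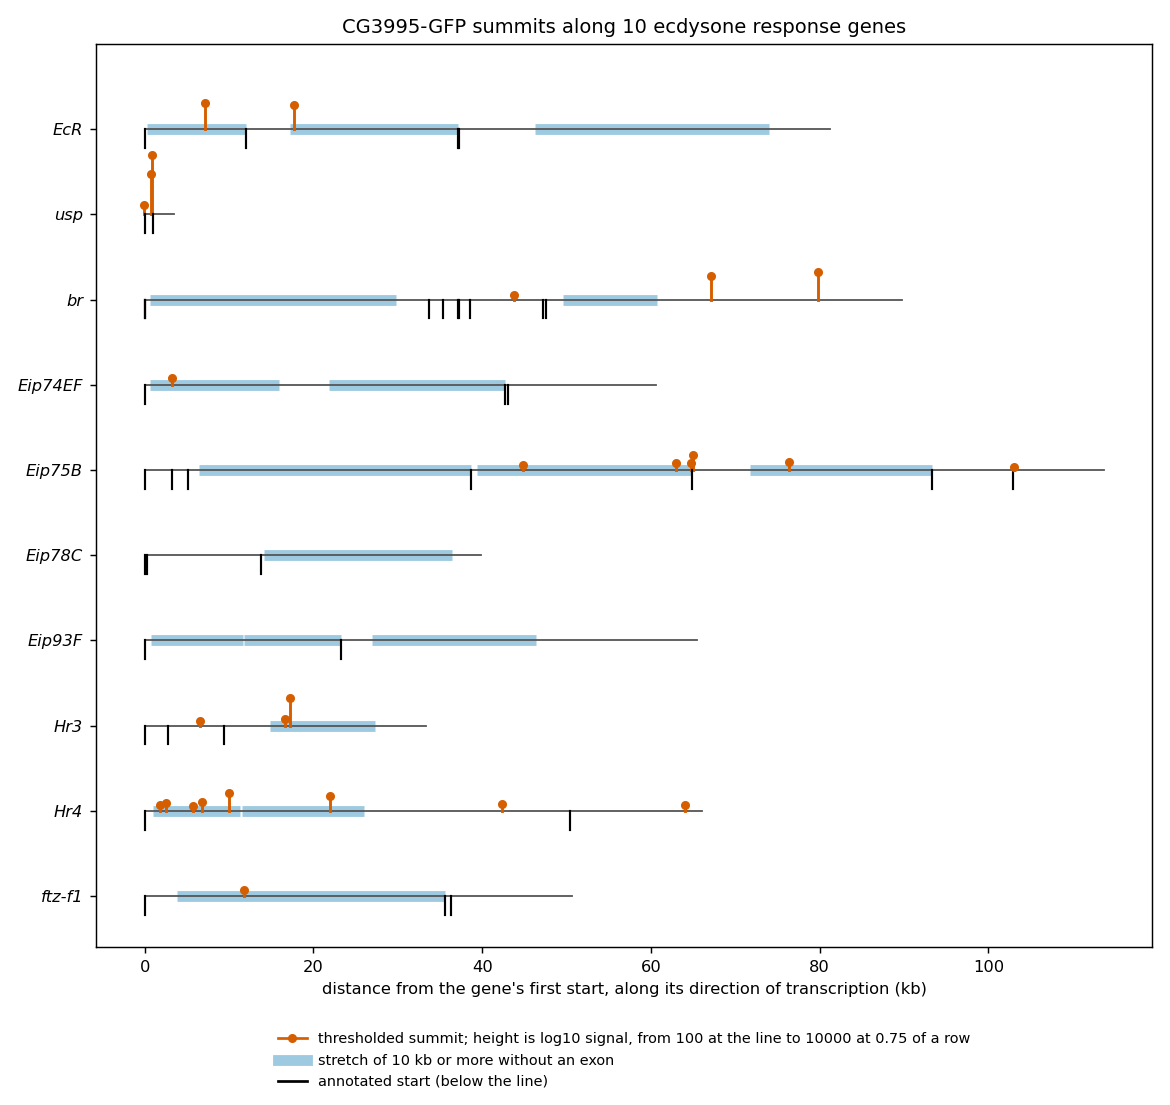
The 10 genes drawn to scale from their first start (horizontal axis, kb along the direction of transcription), with starts as ticks below the line, long introns as blue blocks and thresholded summits as orange pins whose height is log10 signal. The 27 summits sit mostly in the blue blocks away from the ticks, usp is the gene with the tallest pins, Hr4 has 8 summits, and Eip78C and Eip93F have none.

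In total 27 thresholded summits were assigned to 8 of the genes, 6 of them at starts, 14 in long introns and 7 elsewhere. Their signals ran from 128 to 7447 with a median of 174, against a median of 227 over all 4260 regions, and 10 of the 27 were above that. All 3 replicates had 13 of them among their strongest regions, 2 replicates had 8, and 1 replicate had 6. The width of 416 bp, the most common in the list (2705 of 4260 lines), was that of 16 of them, with signals up to 298. The 11 of other widths had signals of 193 or more. In 2704 of the 2705 lines of that width the summit is at the midpoint.

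**Figure D3:**
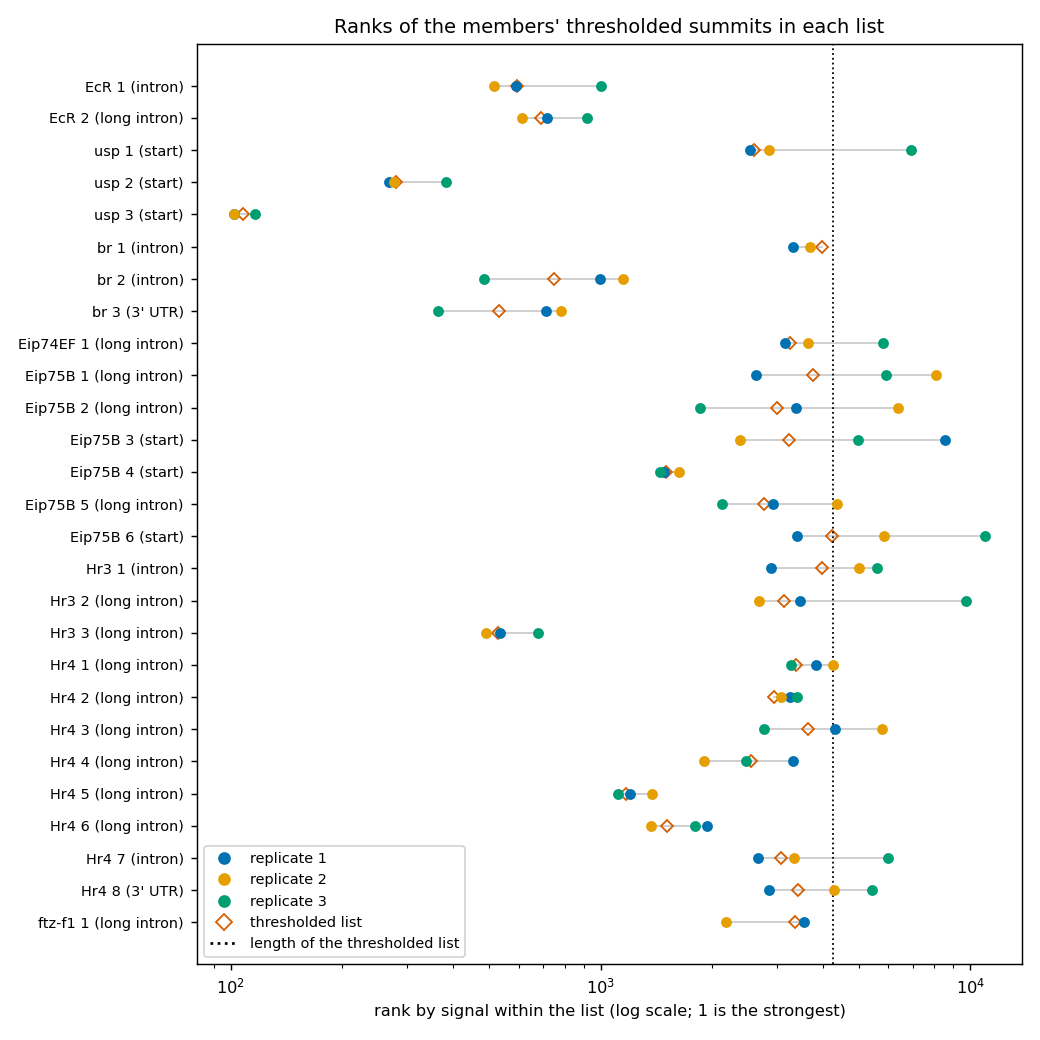
Rank of each of the 27 thresholded summits (log axis, 1 is the strongest) in the thresholded list (open diamonds) and at the matching summit within 150 bp in each replicate list (filled circles); the dotted line marks the length of the thresholded list. The usp, EcR, Hr3 and Hr4 summits of high rank keep narrow ranges, while the weaker summits of Eip75B and Hr3 spread across the dotted line.

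Long introns of these genes held summits at a higher density than long introns in general. Of the 9 with a long intron, 6 (66.7%, interval 29.9 to 92.5%) had a thresholded summit in it more than 500 bp from any start, against 20.3% of the 869 protein-coding genes with a long intron. Per length, the members' long introns held 42.5 summits per Mb (14 in 0.329 Mb), against 8.47 per Mb over all such genes (255 in 30.1 Mb). From the strongest regions of each replicate the density was 42.5, 36.5 and 33.4 per Mb at the 9 genes (37.5 ± 4.64, SD, n = 3), against 8.04, 7.54 and 9.4 per Mb over all (8.33 ± 0.963). The ranges of the replicates do not overlap, but all 3 replicates score the same 9 genes, so their spread does not measure variation between genes. Hr4 supplied 6 of the 14, and without it the density was 26.2 per Mb (replicates 29.5, 22.9 and 16.4; 22.9 ± 6.55), still above the range over all genes. Only 3 of the 869 genes had 6 or more long-intron summits, as Hr4 had, 23 had 3 or more, as Eip75B had, and 49 had 2 or more, as Hr3 had. Keeping only peaks that overlap the strongest regions of both remaining replicates, 3 of 9 genes (33.3%) were left without replicate 1, against 13.5% of all, with 7 summits or 21.3 per Mb, against 5.22 per Mb. Without replicate 2 there were 4 of 9 genes (44.4%), against 14.4%, with 9 summits or 27.4 per Mb, against 5.68 per Mb. The 2130 strongest thresholded lines gave 3 of 9 genes and 4 summits, or 12.2 per Mb, against 7.83% of genes and 2.66 per Mb. With introns of 20 kb or more, 2 of 6 genes (33.3%) had 4 summits or 19.7 per Mb, against 18.0% of 372 genes and 5.45 per Mb. The density was thus higher at the members in each of these settings, while the interval for the share of genes (7.49 to 70.1% for 3 of 9, 13.7 to 78.8% for 4 of 9 and 4.33 to 77.7% for 2 of 6) included the share over all genes. That share was also included where peaks had to overlap every replicate (3 of 9, against 12.2% and 10.1%). It lay below the interval without replicate 3 (21.2 to 86.3% for 5 of 9, against 14.2%). The same held with introns of 5 kb or more (40.0 to 97.2% for 7 of 9, against 18.9%). It held too for merged regions and beyond 1000 bp from any start (29.9 to 92.5%, against 20.3% and 18.4%). Whether the interval included that share thus depended on the setting. The summits themselves were of ordinary strength, with a median signal of 172 in the members' long introns and 180 over all long introns. The pooled list gave 374 summits per Mb at the members and 161 per Mb over all. No p-value is given, because the genes were chosen with earlier results of these data known.

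**Figure D4:**
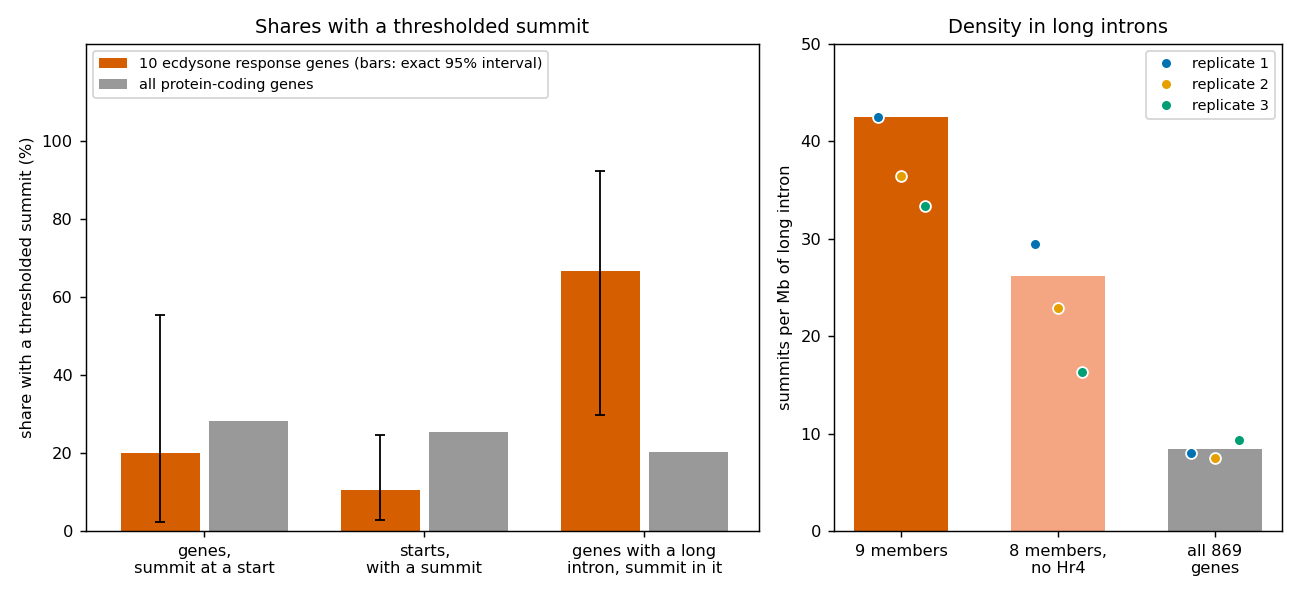
Left, the share (%) of the 10 genes, of their 38 starts and of the 9 with a long intron that had a thresholded summit (orange, bars are exact 95% intervals), beside the same share over all protein-coding genes (grey); right, thresholded summits per Mb of long intron (columns), with the density of each replicate's strongest regions as points. At starts the orange columns are below the grey ones, and in long introns they are above, at 66.7% against 20.3% and 42.5 against 8.47 per Mb.

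Other genes of like build were compared for orientation. The 5 protein-coding genes closest to the members' median in number of starts, length and long-intron length were px, Wdr62, Shab, sima and Smr. Each has 3 starts and a length of 58.4 to 67.8 kb. Summits at a start were found at px (signal 771) and sima (526), and 1 long-intron summit at Smr, which encodes a corepressor of EcR. Wdr62 and Shab had none.

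The DNA at the summits was searched on both strands in windows of 101 bases, 50 to each side of the summit. The letters AGGTCA, the core that nuclear receptors bind, were in none of the 27 windows, against 2% of all 4260. Within 100 bp of the summit they were at 2 of 27 (7.41%), the second summits of br and Hr4, against 3.99%, so the order of the shares depends on the window. The EcR/Usp type of element, AGGTCA and TGACCT separated by 1 base, was in none of the 27 and none of the 4260. This exact form was also in none of 8520 windows 300 bp away and none of 19252 windows centred on protein-coding starts. Its absence therefore does not set the summits apart, and imperfect forms were not searched beyond the next one. A shorter form, GGTCA and TGACC separated by 1 base, was in none of the 27 or the 4260 windows either. Within 100 bp it occurred at 1 of the 4260 summits, the second of Hr4. The DRE (TATCGATA), a promoter element, was in 1 of 27 windows (3.7%), the tRNA-side summit of EcR, against 7.02% of all summits and 0% of the 255 long-intron summits. Its core ATCGAT was in 2 (7.41%), against 16% of all summits and 3.14% of the long-intron summits. Motif 1 (GGTCACAC) was in none, against 3.4% of all summits and 0% of the long-intron summits. Of all thresholded summits 75.1% lay within 500 bp of a start, against 25.9% of the 27, so the all-summit shares weigh promoters more. The FTZ-F1 site (CAAGGTCA) was in none, against 0.141%, the E74 core (CGGAAG) in 1 (3.7%), against 1.88%, and the GAGA word (GAGAGA) in 1 (3.7%), against 2.77%.

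A trio of further words was chosen after reading the br and Eip75B sequences, so their counts are descriptions. GTCAC, which is also part of Motif 1, was in 8 of 27 windows (29.6%), against 26.1% of all summits, 24.7% of long-intron summits and 11.2% of windows 300 bp away. CAGTCAC, which contains GTCAC, was in 2 (7.41%), both at br, against 4.2% of all summits, 8.24% of long-intron summits and 0.951% of flanking windows. GATGGCGC was in 1 window of 27 (3.7%), at Eip75B, against 22 of 4260 (0.516%) and 1 of the 255 long-intron summits. Within 100 bp it was found at 3 of 27 summits (11.1%), the second of EcR, with 2 copies, and the first and the fifth of Eip75B. Over all summits it was within 100 bp at 42 of 4260 (0.986%). Those at EcR and Eip75B were the only 3 among the 255 long-intron summits.

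Beyond the 10 genes, 73 other genes of ecdysone biology were examined, and 16 (21.9%, 13.1 to 33.1%) had a thresholded summit at a start, against 28.2% of protein-coding genes. Among 15 genes of hormone synthesis and inactivation, 2 had one, ecd (signal 247) and Npc1a (167, shared with Prosalpha6). Of 3 transport genes, the ABC transporter genes E23 (347) and Atet (153) had one. Of 9 co-regulators of the receptor, 4 had one, with alien by far the strongest (signal 11572, rank 61, shared with CG18661) and then Hsp83 (495), which encodes the chaperone Hsp90, tai (174, shared with CG9586), a coactivator of EcR, and E(bx) (153, shared with mthl14), a subunit of the NURF remodeler. The replicates ranked the alien summit 72, 60 and 55. Of 14 other nuclear receptors, Hr96 (358, shared with EMC6), Hr78 (341, shared with asRNA:CR43933), ERR (318) and Hnf4 (237) had one. Of 32 further induced genes, Eip63F-1 (312), Ldh (259), Cth (242) and the cell death gene hid (148) had one. With 4 of 32 (12.5%, 3.51 to 29.0%), the induced genes had a lower share than the co-regulators (44.4%, 13.7 to 78.8%), but their intervals overlap.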

How the data were processed

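Chromatin of 3 biological replicates, sonicated to 200 to 800 bp per the labels, was precipitated with an anti-GFP antibody. For each replicate and for all replicates together, the authors called a list of peaks and background regions against a control file on dm6, and from these kept a thresholded list by the irreproducible discovery rate, which compares ranks between replicates, per the deposited notes on the files. How reads were aligned, which program called the regions and what threshold was applied is not given in the sources used here. The deposited signal is the authors' enrichment value; the deposited −log10 q-value had 1 top value shared by 4036 of the 4260 thresholded lines and was not used for ranking. Depth was unknown. Lists on dm3 were not used.

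Summits were placed by Python 3.11.15 (pandas 2.3.3, numpy 2.4.6) at the region start plus the summit offset and set against transcript starts of Ensembl release 115 (BDGP 6.54) on 6 chromosome arms. Sequences came from the RefSeq copy of that assembly, whose arm lengths were those of dm6. A summit within 500 bp of a start was at that start. Long-intron summits were more than 500 bp from any start of any gene. A replicate summit within 150 bp was a match. Starts at 1 position were counted once. Intervals were exact (scipy 1.17.1). The counting steps were checked on a made-up gene with a short made-up list of summits.

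There was 1 group, so no groups were compared and no test was run. The 10 genes, the gene lists, the motifs and the rules were chosen with earlier results of these data known. Named besides the members were genes with a start beside or nearest to a member's summit and the other ecdysone genes with a summit at a start. The 5 genes most like the members' median in build were named too. Of 73 other ecdysone genes all were found, 7 by a synonym. Replicates are labelled biological, from 1 line, and SDs show the spread between them.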

Additional observations from a re-analysis of the deposited data

How the results depend on the processing

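Of 104 values recomputed under an alternative, 68 stayed within 1.5 times the reported one or within the replicate spread, and 36 moved. The 68 include motif counts that stayed at 0, as for Motif 1 and the FTZ-F1 site. The tally is therefore no measure of how firm the main results are. The 2 genes with a summit at a start stayed 2 when a replicate was left out. Starts with a summit (4) fell to 2 with the 2130 strongest lines, and to 2 when peaks had to overlap the strongest regions of every replicate by 1 bp or by 50% of both intervals. These were 5.26% of the members' starts each time, against 14.5%, 19.6% and 15.8% of all starts in the same order. Genes with a long-intron summit (6) fell to 3 in each of these settings, long-intron summits (14) to 4, 7 and 4, and the other ecdysone genes (16) to 9 under the 50% overlap. Over all genes with a long intron the share fell too, from 20.3% to 7.83%, 12.2% and 10.1%. Their density fell from 8.47 to 2.66, 4.75 and 3.59 per Mb, against 12.2, 21.3 and 12.2 per Mb at the members. The 9 other ecdysone genes have no share over all genes beside them here. Leaving out a replicate, which asks for overlap with both others, gave 2 to 3 starts, 3 to 5 genes and 7 to 10 long-intron summits, with replicate 1 giving the fewest genes and summits. With introns of 20 kb or more, 2 genes, 4 summits and 19.7 summits per Mb remained, against 5.45 per Mb over all genes. Without Hr4, an alternative added after seeing the data, there were 8 summits and 26.2 per Mb. With all replicate regions the mean number of genes with a region at a start was 6.33, with no share over all genes beside it here. Windows of 25 bp to each side gave 1 member summit with the DRE core (3.7%, against 9.67% of all summits) and 0 with GAGA (against 1.22%). They gave 4 with GTCAC (14.8%, against 15.3%) and 0 with GATGGCGC (against 0.164%). Windows of 100 bp gave 2 with GAGA (7.41%, against 7.42% of all summits), 2 with AGGTCA (7.41%, against 3.99%), 1 with an inverted repeat of the 5 bases GGTCA (3.7%, against 0.0235%), 4 with CAGTCAC (14.8%, against 5.73%) and 3 with GATGGCGC (11.1%, against 0.986%). Windows of 200 bp gave 3, 4, 1, 5 and 3, against 17.1%, 7.72%, 0.0235%, 7.25% and 1.34% of all summits, and 13 with GTCAC (48.1%, against 51.4%). At 100 and at 200 bp the inverted repeat was at 1 of all 4260 summits, the second of Hr4. The 0.0235% is therefore that same summit and is no separate background. RefSeq starts were the same for all 10 genes. Depth was unknown, so a start with no region may lie below what these libraries detect. No paired analysis was possible because there was only 1 group.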

Other observations

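The repeated GTCAC at br was uncommon among the thresholded summits. At least 3 copies within 50 bp were found at 70 of 4260 summits (1.64%), and at least 5, as at the third br summit, at 10. These 70 summits, a set defined by sequence after seeing the br sequences, all matched in every replicate, ranked best in replicate 3 in 48 cases (68.6%), against 1394 (34.1%) of the 4085 thresholded summits matched in every replicate. Their median ranks were 960, 1159 and 557 in replicates 1, 2 and 3, against 2115, 2125 and 2122 over those 4085. Their median signal was 541, against 227 over all 4260, and 40.0% lay within 500 bp of a start, against 75.1%. Both GTCAC-rich summits of br ranked best in replicate 3, but they are among the 70 and the 48, so this is no separate observation. What sets replicate 3 apart there was not tested.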
